A study of Mus musculus with 2 samples.

Results

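Of 35965 barcodes kept in single-cell RNA libraries of the mouse genital tubercle, 275 carried high counts of the smooth muscle genes Acta2, Tagln, Actg2 and Cnn1. They are called Acta2/Tagln-high barcodes here, where a barcode stands for the RNA of 1 droplet and so, in most cases, of 1 cell. A barcode was chosen when it had at least 5 unique molecules (UMIs) summed over the 4 genes, with at least 2 of the 4 detected, and no UMI of Myod1, Myog or Actc1 (striated muscle), Cdh5 (endothelium) or Epcam (epithelium). The male library held 213 of them among 17254 kept barcodes and the female library 62 among 18711. Barcodes with none of the 4 genes, 14894 male and 16550 female, served as the reference.

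Smooth muscle cells contract through filaments of actin and myosin, and myosin is switched on when its regulatory light chain is phosphorylated by myosin light chain kinase. The contractile genes are driven by serum response factor together with its coactivator myocardin, which act on a DNA element named the CArG box. In the external genitalia smooth muscle surrounds vessels and the cavernous spaces of the erectile bodies, where nitric oxide and cyclic GMP relax it. Acta2 and Tagln are also made by other contractile cells, such as myofibroblasts, and by the precursors of several mesenchymal tissues.

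The genital tubercle is the outgrowth that becomes the penis or the clitoris. The study took it from wild-type C57BL/6 embryos at embryonic day 14.5 (Theiler stage 22), and the male library and the female library each came from dissociated tubercles of 3 embryos, pooled by sex and drawn from 2 litters. The embryos carried no mutation or treatment according to the labels. With 1 pooled library per sex there was no replicate, so no test was made. Intervals given in brackets are exact 95% intervals that cover counting error only.

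The male library held 130105692 UMIs and the female library 144515562. The Acta2/Tagln-high barcodes had a median of 7948 UMIs and 2801 genes in the male library and 8471 UMIs and 2984 genes in the female library, against 5026 and 5126 UMIs in the reference barcodes. Mitochondrial genes took a median of 6.42% and 6.64% of their UMIs in the male and female library, against 6.77% and 6.78% in the reference. The labels of sex fitted the counts, with 0 male and 950 female UMIs of Xist and 124 male and 0 female UMIs of the Y-linked gene Ddx3y in these barcodes. The libraries shared 82 kept barcode sequences, of which none was an Acta2/Tagln-high barcode. High doublet scores were more common here than elsewhere, at 51 of 213 male (23.9%) and 18 of 62 female Acta2/Tagln-high barcodes (29.0%), against 13.8% of male and 14.97% of female kept barcodes; the part of doublets in the results was not tested beyond removing those barcodes.

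Acta2, the actin of smooth muscle (chromosome 19, 34241090 to 34255590, mm10), led the 4 genes. It was at 1993 UMIs per 1000000 (CPM) of the summed UMIs in male and 620.5 CPM in female Acta2/Tagln-high barcodes, with a median of 11 UMIs per barcode in the male library and 4.5 in the female one. The highest male barcode had 201 Acta2 UMIs and the highest female barcode 54. The levels of the libraries thus differed while the barcodes' ranges overlapped. Tagln, which codes for the actin-binding protein transgelin (chromosome 9, 45929619 to 45936058), reached 1091 CPM in male and 427.5 CPM in female barcodes, with medians of 5 and 3 UMIs. Actg2, the enteric smooth muscle actin, had at least 1 UMI in 79 male barcodes (37.1%) and 9 female barcodes (14.5%), at 170.9 and 34.8 CPM. Cnn1, calponin, which restrains the myosin motor, was detected in 87 male (40.8%) and 11 female barcodes (17.7%), at 79.9 and 26.8 CPM. All 4 genes were detected in 29 male barcodes (13.6%) and 2 female barcodes (3.23%), whereas 103 male (48.4%) and 49 female barcodes (79.0%) had only 2 of the 4. The actin genes have nearly identical coding sequences, and reads that match several of them may have been split or lost in the deposited counts, so levels of Acta2, Actg2 and Actc1 are less certain than those of other genes.

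**Figure D1:**
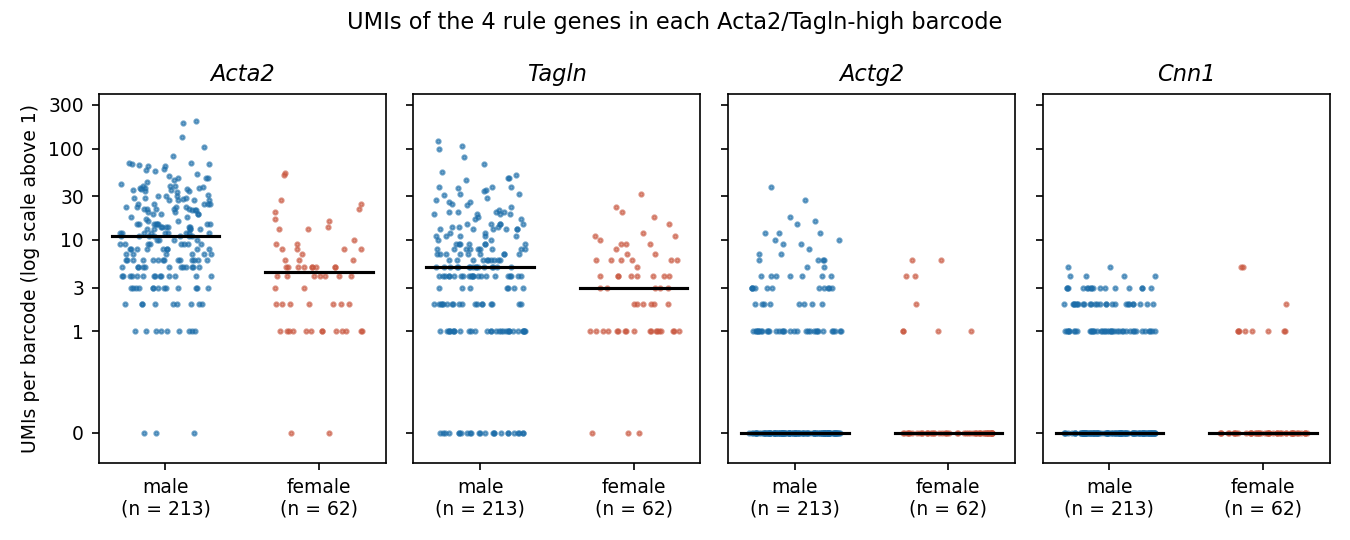
UMIs per Acta2/Tagln-high barcode (vertical axis, logarithmic above 1 UMI) of the 4 genes that chose the barcodes, in 213 male and 62 female barcodes. Each point is a barcode and the black line is the median; Acta2 has a median of 11 UMIs in male and 4.5 in female barcodes, and the highest barcodes are male.

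The count limit of 5 UMIs cut through a continuous distribution. The sum over the 4 genes had a median of 17 UMIs in male and 9 UMIs in female Acta2/Tagln-high barcodes and reached 337 and 90. Just inside the limit, with 5 or 6 UMIs, lay 25 male and 23 female barcodes, and just outside it, with 3 or 4 UMIs, lay 76 male and 52 female barcodes. Myl9, the regulatory light chain of smooth muscle myosin, was at 490.3 CPM in male and 300 CPM in female barcodes just inside, at 256.5 and 207.3 CPM in those just outside, and at 75.6 and 79.3 CPM in the reference. Female Acta2/Tagln-high barcodes lay nearer to the limit than male ones. The 29 male and 36 female barcodes that passed the count limit but carried a UMI of an exclusion gene were left out, and Actc1 was the most frequent of these genes, in 16 of the male and 32 of the female barcodes.

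Acta2 was far lower in droplets that should lack it. In near-empty droplets (at most 100 UMIs each) Acta2 was at 54.6 CPM (male) and 22.9 CPM (female). Barcodes with immune genes, a cell type that should lack Acta2, numbered 90 male and 61 female, with median depths of 10766 and 12071 UMIs. Acta2 had a UMI in 1.11% of the male and 3.28% of the female immune barcodes, against 98.6% and 96.8% of Acta2/Tagln-high barcodes, and no immune barcode had 5 or more.

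The label of smooth muscle was checked against genes that the choice did not use. Myh11 (smooth muscle myosin heavy chain), Lmod1 (leiomodin, which nucleates actin filaments) and Myocd (myocardin) are the narrowest markers of the type. At least 1 of these 3 genes was detected in 91 of 213 male (42.7%, 36.0 to 49.7%) and 23 of 62 female Acta2/Tagln-high barcodes (37.1%, 25.2 to 50.3%), against 4.96% of male and 4.72% of female reference barcodes. More than 5 in 10 barcodes thus showed none of the 3 at this depth. Myh11 had a UMI in 30 male (14.1%) and 11 female Acta2/Tagln-high barcodes (17.7%), against 3.11% and 2.98% of the reference barcodes. Lmod1 had a UMI in 37 male (17.4%) and 6 female barcodes (9.68%), against 0.242% and 0.23% of the reference. With every barcode thinned to 2000 UMIs, Myocd had a UMI in 11.7% of male and 11.3% of female Acta2/Tagln-high barcodes (27.7% and 22.6% unthinned), against 0.604% and 0.544% of the reference barcodes. Thinned in this way, Myh11 had a UMI in 6.10% and 4.84%, against 1.09% and 0.997% of the reference. Lmod1 had one in 6.10% and 1.61%, the latter a single female barcode, against 0.0806% and 0.0725%. The shares with any of the 3 genes were not thinned. At these levels a barcode that expresses one of the genes can show no UMI of it. The barcodes also differed among themselves. Male Myh11 was at 140 CPM in sub-cluster 1 (described below) but at 5.69 and 0 CPM in sub-clusters 3 and 5, against 6.44 CPM in the reference. In male barcodes of sub-clusters 3 and 5, Lmod1 was at 15.2 and 27.1 CPM, against 0.407 CPM, and Myocd at 9.48 and 7.73 CPM, against 3.36 CPM. The label could thus be checked for the barcodes as a group, and not for each barcode or each sub-cluster. They are called by the counts that chose them.

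Because the barcodes were chosen on counts from the same droplets, their levels over the reference are a description. Of 12436 genes whose counts summed to 100 or more in each library, 187 (1.50%) were past 2-fold higher in the Acta2/Tagln-high barcodes in both libraries and 112 (0.901%) past 2-fold lower. Over all these genes the median log2 ratio was -0.04 in the male library and 0.00 in the female one. Among the 7476 genes with at least 10 UMIs expected in the Acta2/Tagln-high barcodes, 35 (0.468%) were past 2-fold higher in both libraries and 32 (0.428%) lower.

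Genes of contraction outside the 4 were higher as a group. Of 32 listed genes 27 were measured, 9 were past 2-fold higher in both libraries and none lower, and their median log2 ratio was 1.29 in the male library and 0.71 in the female one. Myl9 was at 748.6 CPM in male and 407.4 CPM in female Acta2/Tagln-high barcodes, against 75.6 and 79.3 CPM in the reference, a log2 ratio of 3.31 (3.23 to 3.39) in the male library and 2.36 (2.19 to 2.53) in the female one. Mylk, the myosin light chain kinase, was at 96.8 and 81.8 CPM, against 21.4 and 20.9 CPM, with log2 ratios of 2.18 (1.96 to 2.39) and 1.97 (1.58 to 2.34). The motor's switch and the kinase that sets it were thus both higher in each library.

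Myh11 had log2 ratios over the reference of 1.97 (1.53 to 2.38) in the male library and 1.84 (1.02 to 2.55) in the female one, at a low 25.2 and 21.4 CPM. Lmod1, with too few reference counts for the count of genes, was at 24.2 CPM in male and 12.1 CPM in female Acta2/Tagln-high barcodes, against 0.407 and 0.366 CPM in the reference. Des, the intermediate filament desmin, had log2 ratios of 2.73 in the male library and 1.73 in the female one. Filament proteins were higher as well. Tpm2, a tropomyosin of thin filaments, was at log2 2.32 in the male library and 1.19 in the female one, and Csrp1, a LIM-domain protein of smooth muscle, at 2.83 and 1.64. The remaining 3 of the 9 genes were Tagln2, a relative of Tagln, Pdlim7, which binds the actin cytoskeleton, and Filip1l, whose product is related to a filamin-interacting protein. Tagln2 was further above the reference in the female library, with a log2 ratio over the reference of 1.65 in the male library and 2.69 in the female one. For Synpo2, an actin-binding protein of muscle, a difference from the reference was not detectable, at log2 -0.07 (-0.42 to 0.25) in the male library and -0.04 (-0.59 to 0.45) in the female one, and Cald1, caldesmon, was at 0.64 and 0.45. Some of these ratios depended on the limit on mitochondrial UMIs. With at most 5% mitochondrial UMIs, which left 34 male Acta2/Tagln-high barcodes, 28 of them in sub-clusters led by Runx1, Gatm or Sparcl1, the male log2 ratio turned to -0.86 for Mylk and -0.56 for Myh11, as it did for Foxf1 (-1.86) and Tcf21 (-0.11). Only 5 female barcodes were left, in which Tagln2 was at -0.64, Pdlim7 at -0.57 and Filip1l at -0.12.

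**Figure D2:**
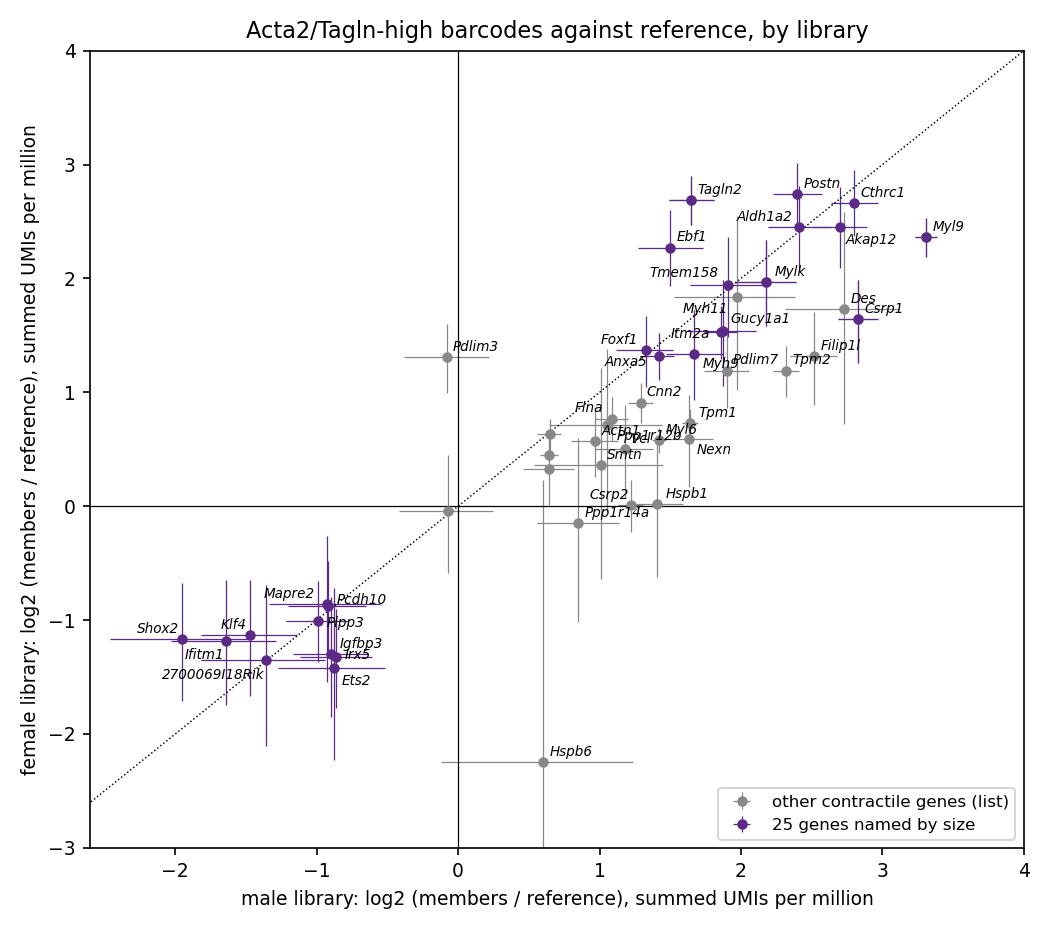
Log2 ratio of Acta2/Tagln-high over reference barcodes in the male library (horizontal axis) and the female library (vertical axis), with 95% counting intervals as bars. Purple points are the genes named by rule and grey points the other listed genes of contraction; Myl9 lies at 3.31 and 2.36, Klf4 at -1.47 and -1.13, and the female interval of Hspb6 runs past the lower edge of the plot, to -7.56.

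Promoter windows of the contractile genes were read for the CArG box, since serum response factor binds it. The windows are those of RefSeq on GRCm38.p6, the assembly also called mm10, and span 250 bases before to 50 after each start. Of 36 contractile genes, the 4 that chose the barcodes included, 31 had a window, with 38 windows in all. Tagln, Actg2, Myh11, Csrp2 and Nexn had no window and were not searched. The window of Cnn1 had no match, even with 1 mismatch. The full element, 2 C bases, 6 bases that are each A or T and 2 G bases, reads the same on both strands, and no other motif was searched. It stood in 7 windows of 6 of these genes (Cnn2, Filip1l, Ldb3, Myl6, Myl9 and Vcl) and in 1.63% of all 32851 windows. The windows of Ldb3 overlap and hold the same site, and Ldb3 had 1 UMI in male and 0 in female Acta2/Tagln-high barcodes. Filip1l and Myl6 each had a further window without a match. With up to 1 mismatch it stood in 16 windows of 15 genes and in 21.1% of all windows. A match is a string of letters and not a measured site. The 3 windows printed here are shown because Acta2 defines the barcodes, Myl9 had the largest male ratio over the reference among the 15 higher genes named by rule, and Filip1l joins the full element to a gene past 2-fold in both comparisons. Capitals mark the matches, with up to 1 mismatch in Acta2 and with none in Myl9 and Filip1l.
Acta2, chr19:34255324-34255623, minus strand: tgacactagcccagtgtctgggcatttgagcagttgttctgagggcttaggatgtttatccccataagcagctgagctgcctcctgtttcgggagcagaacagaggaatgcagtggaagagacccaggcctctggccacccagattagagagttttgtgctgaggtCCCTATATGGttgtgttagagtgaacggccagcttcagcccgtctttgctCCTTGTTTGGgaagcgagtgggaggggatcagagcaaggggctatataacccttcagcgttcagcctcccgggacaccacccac
Myl9, chr2:156775214-156775513, plus strand: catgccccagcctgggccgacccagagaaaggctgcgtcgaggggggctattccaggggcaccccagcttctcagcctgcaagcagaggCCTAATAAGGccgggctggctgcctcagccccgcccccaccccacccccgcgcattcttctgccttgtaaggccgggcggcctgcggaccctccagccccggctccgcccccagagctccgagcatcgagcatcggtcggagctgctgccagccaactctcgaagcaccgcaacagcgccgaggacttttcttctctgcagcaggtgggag
Filip1l, chr16:57548992-57549291, plus strand: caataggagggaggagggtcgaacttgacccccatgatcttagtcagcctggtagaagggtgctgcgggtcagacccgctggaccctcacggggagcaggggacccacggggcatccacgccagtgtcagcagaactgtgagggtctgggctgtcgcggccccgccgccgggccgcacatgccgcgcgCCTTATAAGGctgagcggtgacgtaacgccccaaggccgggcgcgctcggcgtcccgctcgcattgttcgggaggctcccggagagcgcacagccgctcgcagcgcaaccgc
The Acta2 matches begin 84 and 34 bases before the start of transcription, the Myl9 match 161 bases before it and the Filip1l match 62 bases before it.

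Myocd stood out among the regulators of smooth muscle. It was at 44.6 CPM in male and 38.9 CPM in female Acta2/Tagln-high barcodes, against 3.36 and 2.79 CPM in the reference, with log2 ratios of 3.73 (3.38 to 4.07) in the male library and 3.80 (3.20 to 4.35) in the female one. Its partner Srf, which many cell types use, was at log2 -0.26 (-0.67 to 0.12) and 0.11 (-0.50 to 0.67). Of 31 listed regulators 26 were measured, 3 were past 2-fold higher in both libraries and 2 lower, and the list's median log2 ratio was -0.33 in the male library and -0.03 in the female one. The other 2 higher genes were Foxf1, a forkhead factor of visceral mesenchyme, and Ebf1, a factor of pericytes and other mesenchymal lineages. Foxf1 was at 105.1 CPM in male and 119.3 CPM in female Acta2/Tagln-high barcodes, against 41.9 and 46.1 CPM in the reference. Ebf1 was at 78.9 and 104.5 CPM, against 27.9 and 21.6 CPM. Both genes were uneven among the Acta2/Tagln-high barcodes. Foxf1 was at 487.6 CPM in sub-cluster 1, described below, against 60.6 CPM in all other Acta2/Tagln-high barcodes. In male barcodes of sub-clusters 3 and 5 it was at 5.69 and 0 CPM. Ebf1 was at 321.7 CPM in sub-cluster 4, against 38.8 CPM in all other Acta2/Tagln-high barcodes. The 2 lower genes were Klf4, a zinc finger factor known to oppose the contractile genes in cultured smooth muscle, at 35.8 and 45.6 CPM against 99.4 and 100.1 CPM, and Tbx18, a T-box factor of ureteral smooth muscle and pericytes, at log2 -1.11 and -1.43 (female 0.25 without the exclusion genes).

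Both subunits of the nitric oxide receptor were also higher. Gucy1a1 and Gucy1b1 code for the subunits of soluble guanylate cyclase, the receptor of nitric oxide. Gucy1a1 was at 73.6 CPM in male and 55 CPM in female Acta2/Tagln-high barcodes, against 20.1 and 18.9 CPM in the reference, and Gucy1b1 had log2 ratios of 1.86 and 1.26. Downstream, Prkg1, the kinase that cyclic GMP activates, was at log2 1.31 (0.86 to 1.74) in the male library and 0.45 (-0.69 to 1.38) in the female one. Pde5a, the phosphodiesterase that breaks cyclic GMP down, was at 1.39 (1.08 to 1.68) and 0.65 (-0.02 to 1.26). Of 26 listed receptors, channels and cyclic GMP genes 20 were measured, 3 were past 2-fold higher in both libraries and 1 lower. The third higher gene was the endothelin receptor Ednrb, with log2 ratios of 2.73 in the male library and 5.24 in the female one. Its level was 509.1 CPM in the 10 barcodes of sub-cluster 8, led by Cdh6 and Foxd3, against 20.6 CPM in all other Acta2/Tagln-high barcodes. The lower gene was Rgs2, which dampens receptor signalling, at -1.56 and -1.70. The muscarinic receptor genes Chrm2 and Chrm3, which mediate contraction by acetylcholine, had 1 UMI each in male and 0 in female Acta2/Tagln-high barcodes.

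Pericyte genes gave a mixed picture. Of 13 listed genes 7 were measured and 1 was past 2-fold higher in both libraries, the adhesion molecule Mcam, at log2 1.78 in the male library and 2.76 in the female one. Rgs5, a defining gene of pericytes, had 20 UMIs in 7 male barcodes and none in the 62 female barcodes, which allows a share with a UMI of up to 4.84% but sets no limit on cells that express it, and Kcnj8, a potassium channel of pericytes, had 19 and 4 UMIs. Vtn and Higd1b were at 0 in Acta2/Tagln-high barcodes of both libraries. Pdgfrb, the platelet-derived growth factor receptor of mural cells, was at 63.9 CPM in male and 105.9 CPM in female Acta2/Tagln-high barcodes, against 79.1 CPM in the reference of each library.

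Several further genes code for matrix or signalling proteins. Cthrc1, a secreted collagen triple helix repeat protein, was at 171.4 CPM in male and 138 CPM in female Acta2/Tagln-high barcodes, against 24.5 and 21.8 CPM in the reference. Postn, periostin of the matrix, was at 148.7 and 148.8 CPM, against 28.1 and 22.3 CPM. Akap12, a scaffold for protein kinase A, was at 131.2 and 93.8 CPM, against 20.2 and 17.1 CPM. These 3 genes had log2 ratios of 2.40 to 2.80 in the male library and 2.45 to 2.74 in the female one, although Cthrc1 in the female library turned to -0.42 where at least 3 of the 4 genes had to be detected. Aldh1a2, which makes retinoic acid, was at 96.4 and 85.8 CPM, against 18.1 and 15.7 CPM. The other genes named by rule were Itm2a, Anxa5, Tmem158 and Myh9, the heavy chain of a nonmuscle myosin, with log2 ratios between 1.32 and 1.94 in both libraries. Tcf21, a basic helix-loop-helix factor of mesenchyme that was on a list, was at 89.6 CPM in male and 41.5 CPM in female Acta2/Tagln-high barcodes, against 13.7 and 10.01 CPM in the reference.

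The lowest genes by the same rule were more modest. Shox2, a homeobox factor, was at 17.9 CPM in male and 44.2 CPM in female Acta2/Tagln-high barcodes, against 69.1 and 99.2 CPM in the reference. Ifitm1, an interferon-induced membrane protein, was at log2 -1.64 in the male library and -1.18 in the female one. Plpp3, Igfbp3, Ets2, Pcdh10, Mapre2 and Irx5 lay between -0.86 and -1.42 in both libraries, and 2700069I18Rik, an antisense gene whose counts depend on how strand was used in counting, was at -1.36 and -1.35. With at most 5% mitochondrial UMIs, which left 5 female barcodes, the female ratios of Shox2 (1.34), Ifitm1 (0.35) and 2700069I18Rik (1.76) turned.

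Markers of other cell types gave summed levels below the reference for endothelium, immune cells, epithelium and red blood cells, where the reference, unlike the Acta2/Tagln-high barcodes, keeps barcodes with Cdh5 or Epcam. Endothelial genes summed to 43.1 CPM in male and 32.2 CPM in female Acta2/Tagln-high barcodes, against 157.9 and 85.9 CPM in the reference, and Pecam1 and Plvap were at 0 in both libraries. Immune genes summed to 3.39 and 1.34 CPM, against 74.7 and 36.4 CPM. Epithelial genes summed to 64.4 and 13.4 CPM, against 96.8 and 44.9 CPM. Yet 2 or more endothelial UMIs were found in 7.04% of male and 6.45% of female Acta2/Tagln-high barcodes, against 1.80% and 1.21% of reference barcodes. For epithelial genes these shares were 12.2% and 3.23%, against 2.56% and 1.78%. Deeper barcodes can pass such a limit more often, and the part of these genes in the results was not tested. Mesothelial genes summed to 12.1 CPM in male and 1.34 CPM in female Acta2/Tagln-high barcodes, against 0.605 and 0.282 CPM. Glial and neuronal genes summed to 48.9 CPM in male and 241.2 CPM in female Acta2/Tagln-high barcodes, against 34.7 and 42.8 CPM, and 2 or more UMIs of the list were found in 12 male (5.63%) and 9 female barcodes (14.5%). Skeletal muscle genes that the choice did not exclude summed to 89.6 and 107.2 CPM, against 19.7 and 20.8 CPM, with Tnnt1, a slow troponin, at log2 3.25 in the male library and 2.63 in the female one. Haemoglobin and other erythroid genes summed to 380.1 CPM in male and 1173 CPM in female Acta2/Tagln-high barcodes, against 6649 and 10754 CPM, and 1 female barcode held 570 of the 875 female haemoglobin UMIs.

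Clustered on their own, the Acta2/Tagln-high barcodes fell into 8 sub-clusters, which are numbered and described by their leading genes. Since genes that differ between the libraries also drove the clustering, their sizes are not compared as a result, and sub-clusters held almost wholly by 1 library may reflect that library. Sub-cluster 1 (49 male and 11 female barcodes) was led by Foxf1, Tcf21, Myh11, Mylk, Tmem158 and Myocd. In it Myh11 was at 140 CPM in male and 115.2 CPM in female barcodes and Acta2 at 3162 and 1267 CPM, while Lum was at 0 in both. The sub-cluster thus held counts of the defining genes of smooth muscle in both libraries. These genes were not left out of the clustering, so their levels here are no independent result. The 11 female barcodes had 7 UMIs of Myh11, in 5 barcodes, and 3 UMIs of Myocd, in 3 barcodes. Sub-cluster 2 (43 and 16 barcodes) was led by the mitotic genes Cenpf, Ube2c and Mki67, with Acta2 at 989.6 CPM in male and 604.8 CPM in female barcodes.

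Sub-clusters 3, 5 and 6 were held almost wholly by the male library, with 92 of 213 male and 2 of 62 female barcodes in the 3 together. Genes that differ between the libraries helped to form these sub-clusters, so the numbers describe the grouping and are no independent result. Sub-cluster 3 (48 male and 1 female barcodes) was led by Runx1, Col9a3 and Rgcc, with Sox9, Lum and Dcn among its further leading genes, and its male barcodes had Acta2 at 2314 CPM and Lum at 909.8 CPM but Myh11 at only 5.69 CPM. Sub-cluster 5 (23 and 1 barcodes) was led by Gatm, Irx3 and Filip1l, with male Acta2 at 2269 CPM and Myh11 at 0. Sub-cluster 6 (21 and 0 barcodes) was led by Sparcl1, Prss35, Itm2a, Asb4 and Col1a1, and its male barcodes had Acta2 at 3081 CPM and the highest Actg2 of these 3 sub-clusters, 687.5 CPM. The 0 of 62 female barcodes there allow a share of up to 4.84%. These male barcodes thus had Acta2 at 2269 to 3081 CPM, against 3162 CPM in male barcodes of sub-cluster 1, together with the small proteoglycans lumican and decorin or type I collagen. The median mitochondrial share of male barcodes was 5.51% in sub-cluster 3, 4.16% in sub-cluster 5 and 6.31% in sub-cluster 6, against 6.42% in all male Acta2/Tagln-high barcodes and 8.34% in sub-cluster 1; its part in the grouping was not tested.

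The remaining sub-clusters were smaller. Sub-cluster 4 (23 male and 11 female barcodes) was led by Ebf1 and held Pdgfrb, Hey1, Kcnj8 and the myogenic factor gene Myf5 among its leading genes, with Ebf1 at 273.6 CPM in male and 400.2 CPM in female barcodes. Sub-cluster 7 (3 and 15 barcodes) was led by the Wnt inhibitor gene Notum with Igfbp7, Msx1 and Rprm, and its female barcodes had Acta2 at 589.9 CPM and Actg2 at 0. Sub-cluster 8 (3 and 7 barcodes) was led by Cdh6 and Foxd3, a factor of neural crest and early glia. Its female barcodes had Tagln at 700.6 CPM but Acta2 at only 53.2 CPM, so most of their counts of the 4 genes were Tagln. High doublet scores were found in 21 male and 6 female barcodes of sub-cluster 2 and in 17 and 6 of sub-cluster 4.

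**Figure D3:**
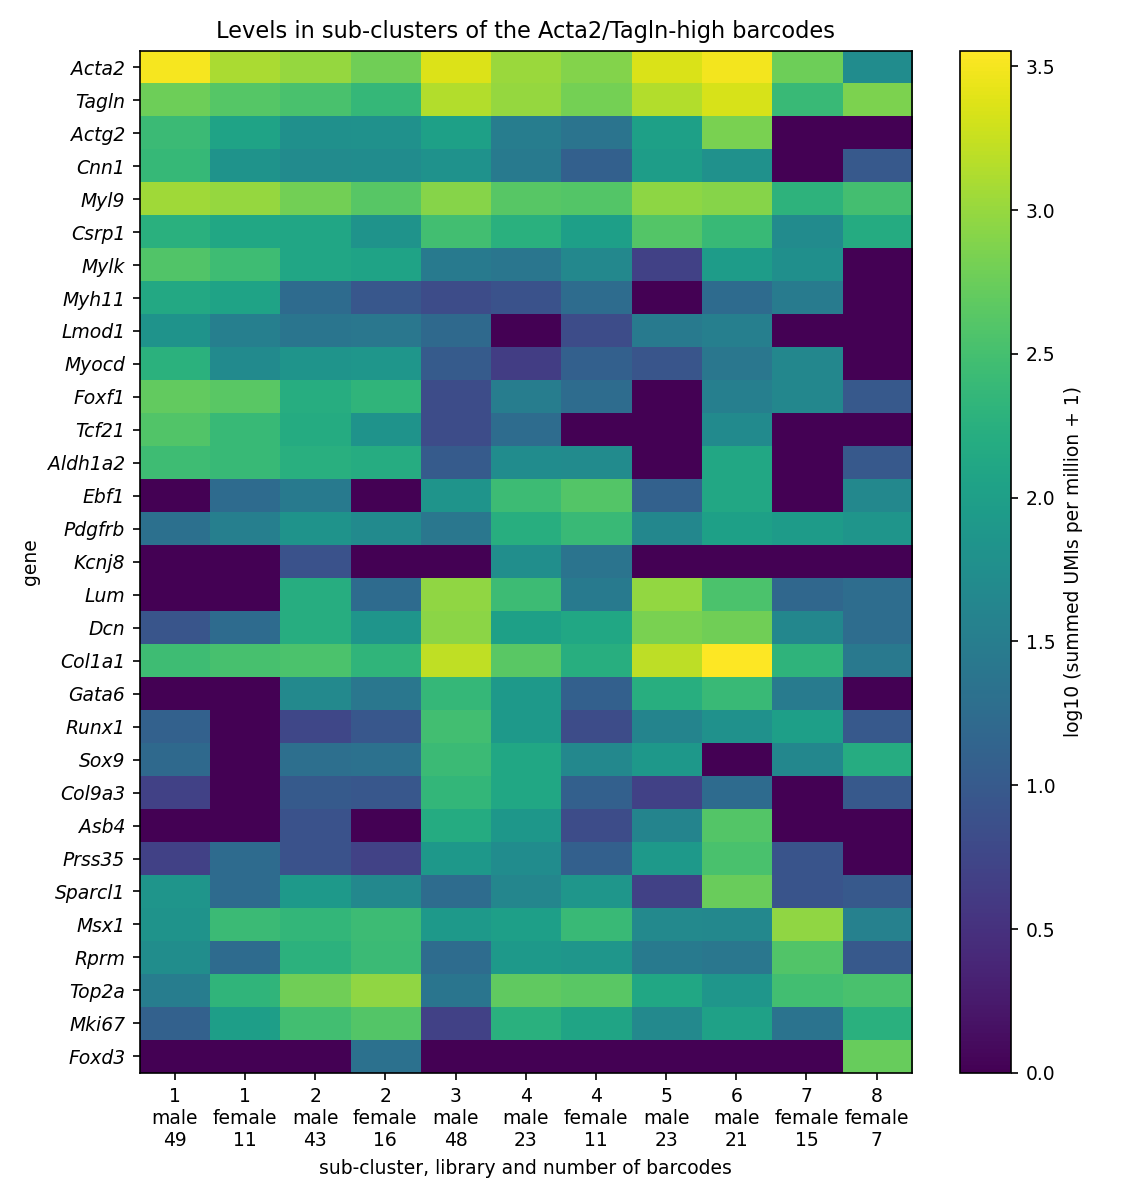
Level of named genes (rows; colour gives log10 of CPM plus 1) in the 8 sub-clusters of Acta2/Tagln-high barcodes, separately for the male and the female library where at least 5 barcodes were present. Sub-cluster 1 is the one with high Myh11 in both libraries, 140 CPM in male and 115.2 CPM in female barcodes, sub-clusters 3, 5 and 6 appear for the male library only, and 7 and 8 for the female library only.

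The share of Acta2/Tagln-high barcodes among kept barcodes was 1.23% (1.08 to 1.41%) in the male library and 0.331% (0.254 to 0.425%) in the female one. The male share was 3.73-fold (2.80 to 5.03) the female share. The gap widened with stricter limits, to 5.95-fold when 10 UMIs of the 4 genes were asked for and to 9.18-fold when at least 3 of the 4 genes had to be detected. It narrowed to 2.75-fold with a limit of 3 UMIs and to 2.68-fold without the exclusion genes. Acta2/Tagln-high barcodes held 52.1% of all UMIs of the 4 genes in kept male barcodes and 12.9% of those in kept female barcodes. With 1 pool per sex, sex cannot be told apart from the pool, the dissociation and the library.

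Within the Acta2/Tagln-high barcodes, male and female levels of the 4 genes differed too, although the choice of barcodes used these counts. The log2 ratio of male over female was 1.68 (1.54 to 1.83) for Acta2, 1.35 (1.18 to 1.53) for Tagln, 2.29 (1.72 to 2.93) for Actg2 and 1.58 (0.90 to 2.32) for Cnn1. Of 4163 genes whose counts summed to 100 or more, 132 (3.17%) were past 2-fold higher in male and 61 (1.47%) past 2-fold higher in female Acta2/Tagln-high barcodes, with a median log2 ratio of -0.03 over all of them. The male barcodes held 2065098 UMIs and the female ones 746199, so genes high in male barcodes reached this limit more easily. At a summed count of at least 20, 577 genes were male-higher and 413 female-higher. Numbers of male-higher and female-higher genes, in lists too, are therefore not compared as a result. Of the 22 contractile genes measured in this comparison, 7 were past 2-fold higher in male and 1 in female barcodes, at a median of 0.57. The 7 were Hspb1, Csrp1, Ppp1r14a, Tpm2, Csrp2, Filip1l and Nexn, with log2 ratios of 1.01 to 1.92, of which Hspb1 turned to -0.06 and Nexn to -0.14 without the exclusion genes and Filip1l to -0.74 among barcodes with Tcf21 or Foxf1. The female-higher gene was Pdlim3, a PDZ and LIM protein of actin filaments, at -1.41 (-1.83 to -0.98), which turned to 0.32 where at least 3 of the 4 genes had to be detected.

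Matrix genes separated the libraries further. Lum, the proteoglycan lumican, was at 466.8 CPM in male and 21.4 CPM in female Acta2/Tagln-high barcodes, and it had a UMI in 110 of 213 male and 10 of 62 female barcodes. Its log2 ratio of male over female was 4.44 (3.74 to 5.26). Col1a1, the main chain of type I collagen, was at 1214 CPM in male and 184.9 CPM in female barcodes (2.71, 2.47 to 2.97), and Dcn, decorin, at 430.5 and 75 CPM (2.52, 2.13 to 2.94). These levels pool barcodes of different sub-clusters. In sub-cluster 1, which both libraries held, Col1a1 was at 283.9 CPM in male and 329.1 CPM in female barcodes and Lum at 0 in both, whereas the male barcodes of sub-clusters 3, 5 and 6 had Col1a1 at 1600 to 3581 CPM. Of 10 mesenchyme genes, 6 were past 2-fold higher in male and none in female barcodes. Eln, elastin, was at 48.9 CPM in male and 2.68 CPM in female barcodes, and Loxl1, an enzyme that cross-links elastin, at 52.8 and 1.34 CPM, where the female values rest on 2 UMIs and 1 UMI. Of 19 basement membrane, elastic fibre and integrin genes, 7 were past 2-fold higher in male barcodes and none in female barcodes. In the reference Lum and Col1a1 did not separate the libraries in this way, with Lum at 56.8 CPM in male and 52.1 CPM in female reference barcodes and Col1a1 at 231.9 and 193.4 CPM. The reference holds all kinds of barcodes without the 4 genes. In barcodes with Gata6 and Lum that were not Acta2/Tagln-high, Eln was at 20.8 CPM in male and 5.17 CPM in female barcodes.

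Other genes of the male library named by rule were Asb4, an ankyrin repeat protein, at 103.6 CPM in male and 2.68 CPM in female barcodes, and Gata6, a zinc finger factor of smooth muscle and visceral mesenchyme, at 132.2 and 17.4 CPM. Gata6 had a log2 ratio of 2.92 (2.13 to 3.85), and it was at 16.2 CPM in male and 17.1 CPM in female reference barcodes. Aspn (asporin), Rgcc, Parm1, Col9a3 (a type IX collagen chain), Prss35 and Fibin made up the rest, at log2 ratios of 2.95 to 4.31. Not all regulators followed. Myocd was at log2 0.20 (-0.42 to 0.85) and Foxf1 at -0.18 (-0.55 to 0.19), so a difference between the libraries was not detectable for either at this depth.

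Genes higher in the female barcodes included homeobox genes of the tubercle mesenchyme and genes also found in glia. Msx1, a homeobox factor, was at 110.9 CPM in male and 347.1 CPM in female Acta2/Tagln-high barcodes (log2 -1.65, -1.91 to -1.38). Msx1 was at 328.3 CPM in male and 311.9 CPM in female reference barcodes, so the female Acta2/Tagln-high barcodes were near the reference and the male ones below it. Msx2 and Lef1, a factor of Wnt signalling, had log2 ratios of -1.67 and -1.47. Cdh6, a cadherin, was at 17.9 CPM in male and 178.2 CPM in female barcodes (-3.31, -3.88 to -2.78), and Ednrb at 28.1 and 96.5 CPM. Cdh6 was at 889.2 CPM in the 10 barcodes of sub-cluster 8, 7 of them female, against 14.6 CPM in all other Acta2/Tagln-high barcodes. The summed glial and neuronal level of female Acta2/Tagln-high barcodes, 241.2 CPM, was 164.8 CPM without the highest barcode, and no gene of that list had enough counts for the comparison of the libraries. Without the barcodes with at least 2 glial UMIs, an alternative chosen after seeing the data, the log2 ratio of Ednrb turned to 1.86. Itga6, Incenp, Kctd12, Ubl3 and the long noncoding gene AC160336.1 completed the female-higher genes, at -2.04 to -1.45. Itga6 (0.30) and Ubl3 (0.47) turned where at least 3 of the 4 genes had to be detected, and Kctd12 (0.58) after thinning to 2000 UMIs.

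**Figure D4:**
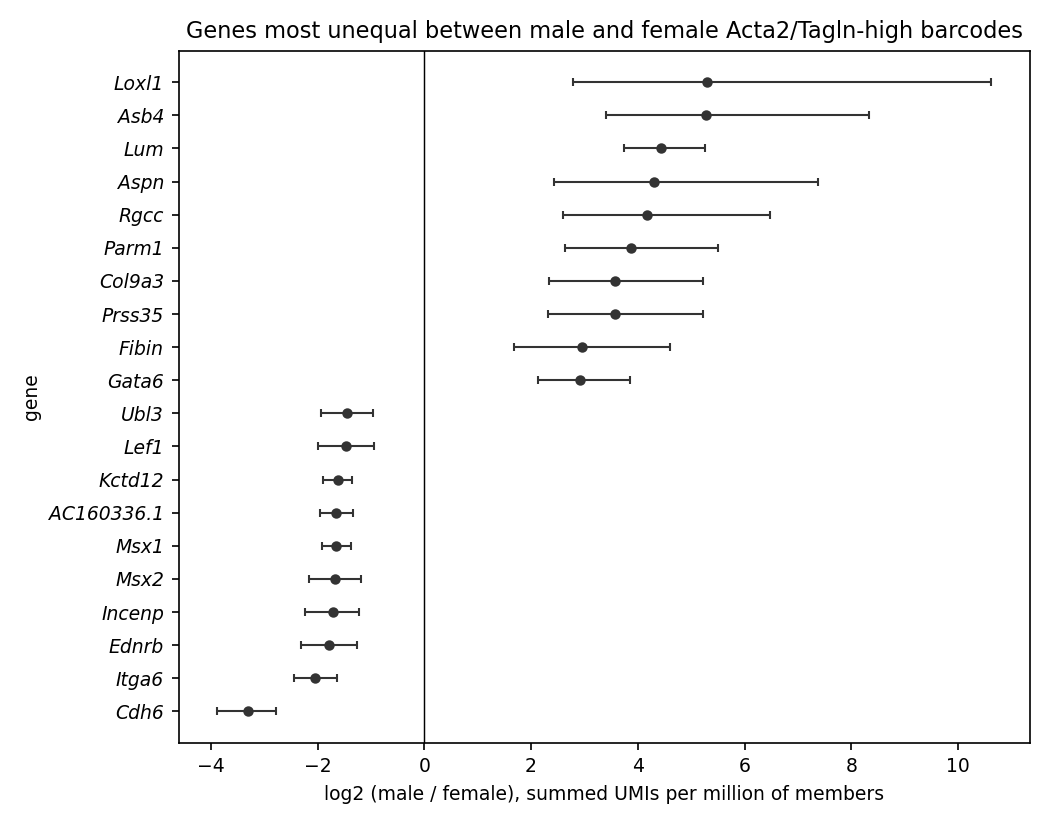
Log2 ratio of male over female Acta2/Tagln-high barcodes for the 20 genes named by rule, with 95% counting intervals as bars. Lum lies at 4.44 and Gata6 at 2.92 on the male side and Cdh6 at -3.31 on the female side; the widest bars belong to Loxl1 and other genes with fewest female UMIs.

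Barcodes were also grouped by pairs of genes that the choice of Acta2/Tagln-high barcodes did not use. The pairs were picked after the values were seen, and Gata6 and Lum were already known to be higher in male Acta2/Tagln-high barcodes, so that a male excess within their group is no independent result. A barcode entered a group when both genes had a UMI and no exclusion gene did. Barcodes with Gata6 and Lum made up 3.45% of the male library (595 barcodes) and 2.93% of the female library (548), with median depths of 7856 and 7463 UMIs. Among them 84 male barcodes (14.1%, 11.4 to 17.2%) and 5 female barcodes (0.912%, 0.297 to 2.12%) were Acta2/Tagln-high. Thinned to 2000 UMIs before grouping, 13 of 148 male barcodes (8.78%) and 0 of 127 female barcodes passed, where 0 of 127 allows a share of up to 2.36%.

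Over all barcodes of the Gata6 and Lum group, the 4 genes that chose the Acta2/Tagln-high barcodes were higher in the male library, and so was Myl9. Acta2 was at 384.4 CPM in male and 7.44 CPM in female barcodes of the group (log2 5.69, 5.23 to 6.19), and Tagln at 262.9 and 10.4 CPM (4.66, 4.27 to 5.09). Actg2 had 158 male UMIs and 1 female UMI, and Cnn1 69 male UMIs and 1. Myl9 was at 209.6 and 66.2 CPM (1.66, 1.49 to 1.84). Outside the Acta2/Tagln-high barcodes, the male barcodes of the group had Acta2 at 15.8 CPM and the female ones at 4.17 CPM. Near-empty droplets also had more Acta2 in the male library, 54.6 CPM against 22.9 CPM in the female one, and the part of free RNA in these lower levels was not tested. Within the male library, the Acta2/Tagln-high barcodes of the group had Col1a1 at 1770 CPM, against 380.2 CPM in its other barcodes, and Asb4 at 143.8 against 13.1 CPM. Some male-higher genes also differed between the libraries in those other barcodes. Col9a3 was at 53.7 CPM in male and 4.97 CPM in female ones, Rgcc at 16.9 and 2.38 CPM and Asb4 at 13.1 and 4.37 CPM. Lum was at 470.4 and 465.3 CPM there, Gata6 at 170.7 and 184.8 CPM and Col1a1 at 380.2 and 291.7 CPM.

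Barcodes with Tcf21 and Foxf1, the pair that led sub-cluster 1, gave a smaller gap. They made up 3.20% of the male library (552 barcodes) and 2.75% of the female library (515), and 62 male (11.2%, 8.72 to 14.2%) and 10 female barcodes (1.94%, 0.935 to 3.54%) among them were Acta2/Tagln-high. Acta2 was at 361.6 CPM in male and 48.3 CPM in female barcodes of the group (log2 2.90, 2.69 to 3.13), and Myl9 was at a log2 ratio of 0.80. The Acta2/Tagln-high barcodes of this group had Myh11 at 74.6 CPM (male) and 53.5 CPM (female) and Myocd at 138.8 and 133.6 CPM. Both libraries thus held barcodes of this kind with the defining genes, at a lower share in the female library. Where Myocd and Foxf1 were detected together, 47 of 182 male (25.8%, 19.6 to 32.8%) and 7 of 149 female barcodes (4.70%, 1.91 to 9.44%) were Acta2/Tagln-high.

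Other pairs gave gaps of differing size. These pairs too were picked after the values were seen. Lum and Dcn were already known to be higher, and Msx1 lower, in male than in female Acta2/Tagln-high barcodes. The order of the gaps is therefore no independent result. With Lum and Dcn, 100 of 1504 male (6.65%) and 9 of 1308 female barcodes (0.688%) were Acta2/Tagln-high, and with Runx1 and Sox9 31 of 557 (5.57%) and 4 of 469 (0.853%). With Pdgfrb and Ebf1, 33 of 713 male (4.63%) and 10 of 729 female barcodes (1.37%) passed. With Msx1 and Rprm, which marked 27.3% of male and 28.5% of female kept barcodes, 27 of 4709 male (0.573%) and 19 of 5334 female barcodes (0.356%) passed, and Acta2 was at 22.9 and 14.4 CPM. The gap in Acta2 was thus log2 0.67 in the Msx1 and Rprm group, against 3.03 to 5.69 in the groups with Pdgfrb and Ebf1, Runx1 and Sox9, Lum and Dcn, or Gata6 and Lum.

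**Figure D5:**
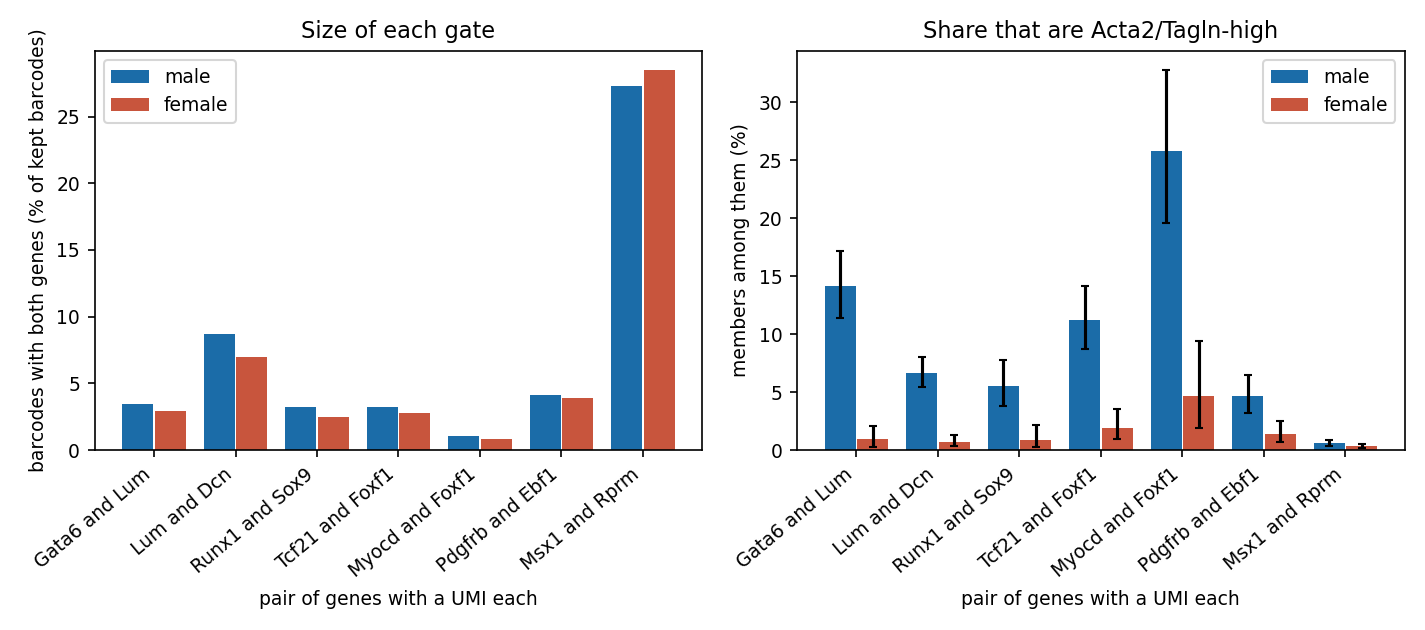
Left, percent of kept barcodes in groups (gates) set by pairs of genes that did not choose the Acta2/Tagln-high barcodes; right, percent of each group that was Acta2/Tagln-high (members), with exact 95% intervals, for the male and the female library. The Gata6 and Lum group holds 3.45% of male and 2.93% of female barcodes on the left, and 14.1% and 0.912% of it are Acta2/Tagln-high on the right.

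Among Acta2/Tagln-high barcodes with a UMI of Tcf21 or Foxf1, 93 male and 27 female, an alternative chosen after seeing the data, Acta2 was at 2393 CPM in male and 780.5 CPM in female barcodes (log2 1.62, 1.43 to 1.81), and Myl9 at 816.8 and 527.6 CPM (0.63, 0.38 to 0.88). Foxf1 itself was at -0.06 (-0.42 to 0.31), Myocd at 0.73 (-0.01 to 1.53) and Myh11 at 0.53 (-0.42 to 1.58), so the counting intervals of these 3 regulators and motor genes included equal levels. Filip1l turned to -0.74 (-1.51 to 0.05). Male barcodes with matrix genes remained in this subset, with Lum at 241.6 CPM in male and 12.5 CPM in female barcodes. Sub-cluster 1, by contrast, had no UMI of Lum, Gata6 or Asb4 in either library, while its Acta2 was at 3162 CPM in male and 1267 CPM in female barcodes. Msx1 remained lower in male barcodes of the subset, at -1.91.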

How the data were processed

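The authors deposited raw UMI counts for each library. The tables were made with Cell Ranger 3.1 on mm10 (per the file headers and the submitters' processing notes), list 31053 genes and were not filtered to cells. The annotation version and the treatment of reads that match several genes are not given in the sources used here. Of the gene IDs, 31011 (99.9%) matched GENCODE M21, which gave coordinates.

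Barcodes were kept with at least 2000 UMIs, 500 genes and at most 10% mitochondrial UMIs. Acta2/Tagln-high barcodes had at least 5 UMIs over 4 genes, at least 2 of the 4 detected and none of 5 exclusion genes. Levels are summed UMIs per 1000000 UMIs of each set. Ratios have exact conditional Poisson intervals and shares exact Clopper-Pearson intervals at 95%. Barcodes are not replicates, so no p-value was computed, and a gene was counted when past 2-fold with a summed count of at least 100. A share of 0 is given with the limit that 3 counts allow. Thinning drew 2000 UMIs from each barcode at random.

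Scrublet, in scanpy 1.11.5, marked 0 barcodes at its automatic threshold and had not worked, so doublets were kept, and an alternative removed the highest scores at 0.8% per 1000 barcodes. Sub-clusters came from 990 of 1000 variable genes, 20 components and 15 neighbours, split by the Leiden method of python-igraph 0.11.9 at a resolution of 0.5.

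Genes named were the 15 highest and 10 lowest over the reference by the smaller absolute log2 ratio of both libraries, with at least 50 CPM on the higher side, and the 10 highest and 10 lowest male over female ratios with at least 50 CPM in the higher library. Genes that chose or excluded barcodes, Y-linked, haemoglobin and mitochondrial genes, Xist and Tsix were left out of both, and members of the gene lists were added. The barcodes and lists were chosen with earlier results of these data known. Some listed genes are not reported here and were left out of their lists. Promoter windows came from RefSeq (GRCm38.p6). Python 3.11.15, numpy 2.4.6, scipy 1.17.1, pandas 2.3.3 and matplotlib 3.10.9 were used, and the counting steps were tested on simulated data.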

Additional observations from a re-analysis of the deposited data

Results flagged for a closer look

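Only genes named by rule and listed genes past 2-fold in a comparison were looked at here, not all 12436 measured genes. Lists of erythroid, epithelial, endothelial, immune and mesothelial genes were left out. For 9 of the genes looked at, the male and the female library lay on opposite sides of the reference, with counting intervals that exclude 0 (for Ptch1 in the female library the lower bound rounds to 0.00). The share over all genes was not computed. The difference between the libraries was not tested, since there was 1 library per sex. Higher than the reference in male and lower in female Acta2/Tagln-high barcodes were Lum (log2 3.04 in male and -1.28 in female barcodes), Dcn (1.82 and -0.62), Col1a2 (1.44 and -0.24), Rgcc (1.93 and -1.61), Mfap4, a microfibril protein (0.66 and -0.32), and Meis1, a homeobox factor (0.19 and -1.29). Lower in male and higher in female barcodes were Itga6, a laminin receptor chain (-1.05 and 1.20), Kctd12 (-0.25 and 1.27) and Ptch1, the Hedgehog receptor (-0.78 and 0.24).

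Barcodes that met the limits on the 4 genes but carried an exclusion gene numbered 29 in the male library and 36 in the female one and were left out of every comparison except the alternative without exclusion genes. They were thus more numerous beside the 62 female than beside the 213 male Acta2/Tagln-high barcodes.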

How the results depend on the processing

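Of 19 alternatives, 3 were added after seeing the data. The male share of Acta2/Tagln-high barcodes was above the female share in each of the 9 that gave a share. No paired analysis was possible because each sex had 1 library, and for the same reason no library was left out in turn. The causes of the shifts that follow were not tested.

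Shares are given for the male and female library, with male over female after them. With at least 5000 UMIs they were 1.87% and 0.494%. With at most 5% mitochondrial UMIs they were 2.78% and 0.45% (6.17-fold), with 3 UMIs of the 4 genes 1.67% and 0.609% (2.75-fold), with 10 UMIs 0.921% and 0.155% (5.95-fold), and with at least 3 of the 4 genes 0.637% and 0.0695% (9.18-fold). Without exclusion genes the female share was 0.524% (2.68-fold), and thinned to 2000 UMIs the shares were 0.637% and 0.0588% (10.8-fold).

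Counts of genes past 2-fold are given as higher and lower than the reference, then male-higher and female-higher. They were 102, 65, 83 and 16 with at most 5% mitochondrial UMIs. At a summed count of at least 500 they were 65, 72, 29 and 5, and at a limit of 1.5-fold 468, 363, 351 and 313. At a summed count of at least 20, 380 were higher, 577 male-higher and 413 female-higher. With at least 3 of the 4 genes 32 were female-higher, and without exclusion genes 248 were lower and 246 male-higher. Thinned, 33 were lower, 36 male-higher and 3 female-higher. With 10 expected UMIs 35 were higher and 32 lower, and with Tcf21 or Foxf1 detected 51 were male-higher and 23 female-higher. A similar count could hold other genes. Thinned, 219 were higher but shared only 43 of the 187 main genes, and without exclusion genes 206 shared 96. With the highest doublet scores removed, 129 were lower and shared 54 of the 112. With ratios shifted to a median of 0, by contrast, 190 were higher and shared 187.

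Changes of sign were counted only for genes past 2-fold in the main comparison, over the reference in both libraries. They were thus not counted over the reference for Plpp3, Igfbp3, Ets2, Pcdh10, Mapre2 or Irx5. Of 1692 recomputed log2 ratios over the reference 17 were such changes, and of 912 male over female ratios 20. With at most 5% mitochondrial UMIs these were, in male barcodes over the reference, Foxf1 (-1.86), Mylk (-0.86), Pdgfa (-0.90), Myh11 (-0.56) and Tcf21 (-0.11), in female barcodes 2700069I18Rik (1.76), Shox2 (1.34), Ifitm1 (0.35), Itm2a (-0.93), Tagln2 (-0.64), Pdlim7 (-0.57) and Filip1l (-0.12), and male over female Tcf21 (-2.36), Notch2 (-0.19) and Ptch1 (0.22). With at least 3 of the 4 genes they were, over the reference in female barcodes, Cthrc1 (-0.42), and male over female Ednrb (0.55), Ubl3 (0.47), Pdlim3 (0.32), Itga6 (0.30) and Rprm (0.21). Without exclusion genes they were Tbx18 over the reference in female barcodes (0.25) and male over female Hspb1 (-0.06) and Nexn (-0.14). Thinned, they were Tbx18 (0.57) and Anxa5 (-0.26) over the reference in female barcodes and male over female Foxf2 (0.58), Hoxd13 (0.58), Kctd12 (0.58), Notch2 (-0.51), Ptch1 (0.32) and Tgfb1i1 (-0.04). With Tcf21 or Foxf1 detected, the male over female ratios of Ednrb (1.01), Rprm (0.09) and Filip1l (-0.74) turned. Without glial barcodes, Megf10 (-0.38) over the reference in female barcodes and Ednrb male over female (1.86) turned. The 62 female barcodes, with 746199 UMIs in all, limit the precision of every female value.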

Other observations

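Signalling lists outside contraction were mostly near the reference. Of 14 TGF-beta genes measured, 2 were past 2-fold higher in both libraries, Ctgf, a matricellular factor, at 18.4 CPM in male and 28.1 CPM in female Acta2/Tagln-high barcodes against 3.66 and 2.93 CPM in the reference, and Tgfb1i1, a focal adhesion protein, at log2 2.14 and 1.06. Ctgf was concentrated in different sub-clusters of the libraries. It was at 98.2 CPM in male barcodes of sub-cluster 6 and at most 18.6 CPM in other male sub-clusters. In female barcodes it was at 150.8 CPM in sub-cluster 8 and at most 12.3 CPM in the others. None of 10 Hedgehog and none of 18 BMP genes was past 2-fold in both libraries, with list medians of -0.21 and -0.37 in the male library and 0.05 and -0.07 in the female one. Among Notch genes none of 10 measured was past 2-fold in both libraries. Heyl, a Notch target with too few reference counts for that number, was at 15.5 CPM in male and 22.8 CPM in female Acta2/Tagln-high barcodes, against 0.231 and 0.15 CPM in the reference. Igf1, the insulin-like growth factor, was at 187.4 CPM in male and 57.6 CPM in female barcodes (log2 1.70, 1.24 to 2.19).

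Of 11 immediate early and stress genes, which dissociation can induce, 2 were past 2-fold higher than the reference in both libraries. Egr1 was at 348.2 CPM in male and 301.5 CPM in female Acta2/Tagln-high barcodes, against 106 and 123.4 CPM in the reference. Fosb was at 12.6 and 4.02 CPM in Acta2/Tagln-high barcodes, where the female value rests on only a few UMIs. Fos and Jun were past 2-fold higher in male than in female barcodes, at log2 1.14 and 1.03. None of 12 proliferation genes was past 2-fold in both libraries, and Top2a, a topoisomerase of dividing cells, was at 239.2 CPM in male and 530.7 CPM in female barcodes. Wt1, a factor of mesothelium, had 17 UMIs in male barcodes and 1 UMI in female barcodes. The interstitial cell genes were at most weakly present, with Kit at 6.29 CPM in male and 8.04 CPM in female barcodes, against 6.63 and 5.35 CPM in the reference.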
